A study of Mus musculus with 8 samples.

Results

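Tertiary neurospheres (passage 2, P2) were compared with primary neurospheres (passage 0, P0) of the same mouse culture system, across genes and pathways outside the glial, proneural and cell cycle programmes. The 4 arrays labelled P2 were set against the 4 labelled P0, which together are all 8 arrays of the series, and each P2 array was paired with the P0 array of the same lentiviral vector. Neurospheres are clusters of neural progenitors, stem cells among them, that grow in suspension with a mitogen, and passaging means dissociating them and letting new spheres form. The question was which genes stood higher or lower after 2 passages, whatever the vector.

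The cells derived from EB3, a line of mouse embryonic stem cells. Embryoid bodies were formed in the presence of the BMP antagonist Noggin, and all 8 groups received lentivirus (multiplicity of infection about 25) when the embryoid bodies were dissociated. Primary neurospheres then grew for 6 days in serum-free medium with 20 ng/ml FGF2, a mitogen of neural progenitors. Secondary and then tertiary neurospheres were made by dissociating the spheres and plating the cells again in that medium, for a time not given in the sources used here. The vectors carried a control shRNA against firefly luciferase (shCont), an shRNA against both Nr2f1 and Nr2f2 (shNr2f1/2), a control miRNA against lacZ (miRCont) or miR-17 (miR17). Each group had 1 array, and the labels do not say whether cultures were grown independently, so p-values measure only the spread between these samples. Across genes, the passage differences of the miRCont and miR17 pairs had a Pearson correlation of 0.92. Every other combination of pairs lay between 0.40 and 0.61. The p-values count each pair as a separate measurement, which the miRNA pairs may not be. Called list members given with no fold, and genes said to be named after their values were seen, lie outside the naming rule and were chosen with their values in view. Values are given in the order shCont, shNr2f1/2, miRCont, miR17 throughout. A scaled signal is the intensity of a probe with the 75th percentile of its array set to 100.

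Late and early neurospheres of this kind are known to differ in what they give rise to, early ones making mostly neurons and later ones also glia. Cultures derived from embryonic stem cells can also hold remnants of the pluripotent state and cells of other lineages. In bulk RNA, fewer cells of a type and less RNA per cell cannot be told apart.

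All arrays lay on 1 slide and were scanned once. The P2 arrays lay in rows 3 and 4 and the P0 arrays in rows 1 and 2, so passage and slide row cannot be told apart, and the shRNA and miRNA vectors lay in different columns. Between 57.9% and 67.9% of the spots were well above background and none was saturated. The knockdown targets were measured first. Nr2f1 had signals of 2988, 1328, 5106 and 4678 on the P2 arrays, against 7140.0, 4127, 3368 and 4581 on the P0 arrays. Nr2f2 had 588, 315, 256 and 346 on the P2 arrays, against 1002, 706, 463 and 492 on the P0 arrays. Within the shRNA system both were lower with the knockdown vector than with its control at each passage. Sox1, Sox2, Nes, Fabp7 and the other neural stem and progenitor markers, 10 in all, were well above background on all 8 arrays. Markers of other cell types were mixed. Of the microglial markers Cx3cr1 and Tyrobp were above background on no array, while Csf1r had 67.2 to 91.2 in P2, against 109 to 177 in P0, above background on all 8. Of the endothelial markers Tek was above background on none, while Kdr had 751 to 1476 in P2, against 417 to 1029.5 in P0, and Pecam1, Cldn5 and Flt1 were also above background on all 8. The erythroid Alas2 and Hbb-bt and the muscle marker Myog were above background on none, and Hba-a1, Hbb-bh1 and the muscle gene Actc1 on all 8.

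Passage separated the arrays of the miRNA vectors most and those of the Nr2f1/2 knockdown least. In the knockdown pair 6.28% of genes were at least 2-fold higher in P2 and 8.05% at least 2-fold lower. The corresponding shares were 12.9% and 13.8% in the shCont pair, 15.7% and 28.1% in the miRCont pair, and 15.3% and 27.8% in the miR17 pair. The 2 P0 arrays of the miRNA vectors stood apart from the other arrays on probes for genes of other tissues: 20.2% and 23.1% of 1197 olfactory receptor probes were well above background there, against 9.61% and 12.6% on the other 2 P0 arrays and 10.6% to 15.5% on the P2 arrays.

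Of 27281 genes tested, 1313 differed between P2 and P0 in limma at a Benjamini-Hochberg adjusted p under 0.05, which is 4.81% of the genes. In P2, 695 of them (2.55%) were higher and 618 (2.27%) lower. Each moved in the same direction in all 4 pairs, as did 49.2% of all genes tested. A call over 4 pairs makes this likely, so it is not a separate result. The smallest adjusted p was 0.0305, and 1309 of the called genes differed at least 2-fold. With 3 pairs, no gene was called when the shCont, miRCont or miR17 pair was left out (8401, 5837 and 5952 genes had an unadjusted p under 0.05), and 4786 were called without the shNr2f1/2 pair, among them 1286 of the 1313. All 4 P2 signals lay above all 4 P0 signals for 9.23% of the genes and below them for 15.2%, and counts of members that do not overlap are read against these shares. The median of all genes was -0.21 log2 units, and 52.9% of called genes were higher in P2, a share of 65.0% where arrays were quantile-normalized and of 30.5% where background was corrected by normexp. Medians of gene lists are given relative to the median of all genes, and a list is said to stand higher or lower only where this held in all 4 pairs. Among the lists reported here, no such direction turned under the alternatives of background, normalization, filter and probes. None turned when a pair was left out, but a direction already required all 4 pairs, so this is a weak check. Lists were not checked with the control, shRNA or miRNA vectors alone.

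A fold is written as at least N-fold where any array of the lower passage was not well above background. Such an array was counted at the higher of its own signal and the lowest signal well above background. An array counted as above background where any probe of the gene was, while signals and folds are those of the brightest probe. A fold written without a bound can therefore still rest on dim signals. The genes whose smallest pair difference was largest came from many families. Among those higher in P2, Ecrg4, which encodes a secreted peptide precursor (probe on chromosome 1, 43799321 to 43799380, mm9), had signals of 1053, 238, 722 and 541 on the P2 arrays, against 12.7, 8.49, 6.47 and 2.82 on the P0 arrays. No P2 signal came near a P0 signal, and the gene rose at least 84.1-fold (log2 6.39, SE 0.47, adjusted p = 0.0305 in limma). Cd36, a receptor for fatty acids and thrombospondins, had signals of 82.1, 22.9, 353 and 196 on the P2 arrays, against 0.979, 0.919, 8.26 and 5.11 on the P0 arrays. It rose at least 36.7-fold, with 2 of 4 P0 arrays well above background (adjusted p = 0.0305). Thy1, a surface glycoprotein of neurons and mesenchymal cells, was measured on all 8 arrays and rose 58.3-fold, its P2 signals being 1049.9, 161, 1347 and 910.2, against 9.42, 8.40, 14.4 and 15.8 in P0. Fgf1, a ligand of FGF receptors, rose at least 45.5-fold. Baalc and Aldh3b1, an aldehyde dehydrogenase, rose at least 38.5-fold and 42.8-fold. Clec3b, which encodes the plasminogen-binding protein tetranectin, rose 79.4-fold and the mitochondrial carrier Slc25a34 at least 81.5-fold. For 17 of the 20 genes in this set the smallest of the 4 differences was that of the knockdown pair.

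**Figure D1:**
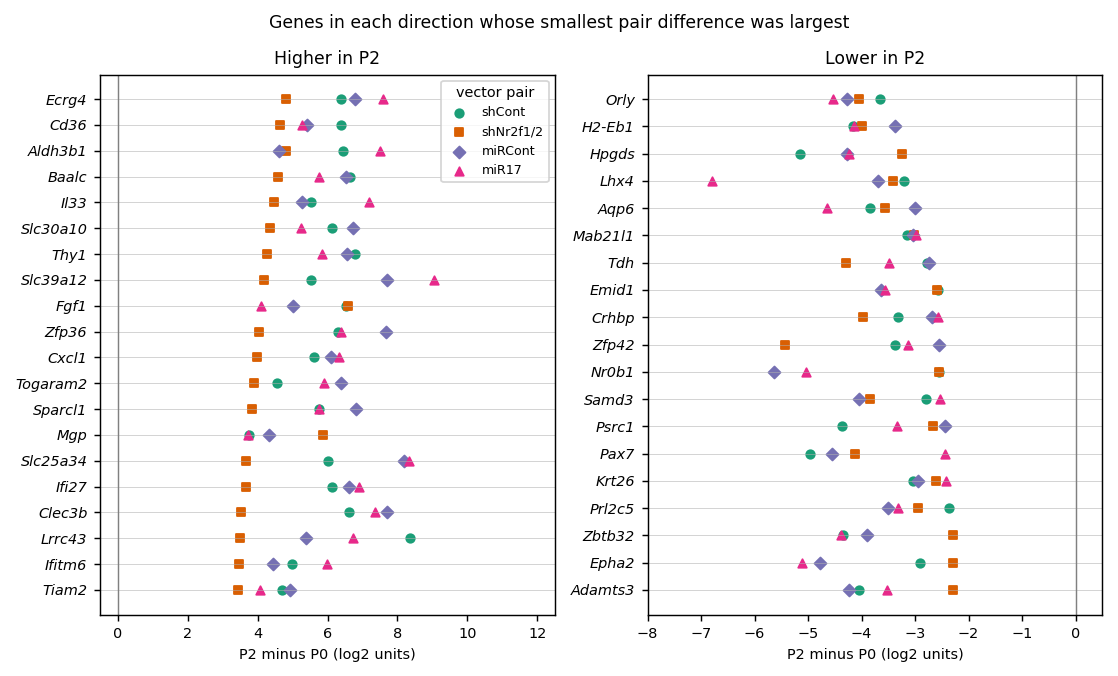
Difference of each P2 array from the P0 array of the same vector in log2 units (x axis) for the 20 genes higher and 19 of the 20 lower in P2 whose smallest pair difference was largest (y axis), glial, proneural and cell cycle genes left out; each symbol is 1 vector pair. All symbols lie on one side of 0 for every gene by the way the genes were chosen, and the orange squares of the Nr2f1/2 knockdown pair lie nearest to 0 for most genes on the left.

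Among the genes lower in P2, H2-Eb1, a class II histocompatibility chain (chromosome 17, 34453075 to 34453134, mm9), had signals of 0.630, 0.656, 0.784 and 0.575 on the P2 arrays, against 11.2, 10.4, 8.11 and 10.2 on the P0 arrays. It was not well above background on any P2 array and fell at least 9.52-fold (adjusted p = 0.0305). The homeobox gene Lhx4 fell at least 19.4-fold, and Pax7, a paired-box factor of the dorsal neural tube and muscle precursors, at least 10.3-fold. Mab21l1, a gene of eye and midbrain development, had 4.95, 4.43, 3.31 and 3.90 in P2, against 43.9, 36.0, 27.2 and 30.8 in P0, and fell at least 8.27-fold. Hpgds, a prostaglandin D synthase, fell at least 14.4-fold, and Epha2, an ephrin receptor, at least 13.6-fold. Over all genes tested, 200 were above background on all 4 P2 arrays and on no P0 array (102 of them called), and 15 the other way round (12 called).

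Immediate early genes, which cells transcribe within minutes of a stimulus, stood higher in P2 as a list. Of 25 members tested, 10 rose and none fell, and 14 had P2 signals wholly above the P0 signals, against 1 wholly below. The list's median stood 1.72 log2 units above that of all genes, and by pair it stood at 1.29, 1.07, 2.05 and 2.45. Zfp36, whose protein speeds the decay of cytokine mRNAs (chromosome 7, 29161940 to 29161999, mm9), had signals of 71.6, 25.8, 223 and 146 on the P2 arrays, against 0.907, 1.57, 1.10 and 1.75 on the P0 arrays. It was above background on no P0 array and rose at least 55.9-fold (adjusted p = 0.0307). Egr2, a zinc finger factor of myelinating cells and of the hindbrain (chromosome 10, 67004798 to 67004857, mm9), had 261, 124, 299 and 261 in P2, against 5.54, 17.6, 12 and 8.77 in P0, and rose 22.3-fold (log2 4.48, SE 0.48, adjusted p = 0.0321). Junb, an AP-1 subunit, rose at least 15.4-fold, Nr4a1, an orphan nuclear receptor, 9.70-fold, and Klf4 2.42-fold. Egr1, Egr4, Fosl2, Ier2 and Myc were the other members that rose.

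Fos, named after its values were seen, shows how close other members came to the threshold. Its signals were 4599, 2951, 8562 and 7421 on the P2 arrays, against 429, 801, 126 and 112 on the P0 arrays, a difference of 4.36 log2 units (SE 0.80) with an adjusted p of 0.0504 in limma. Fosb stood at 3.38 (adjusted p = 0.0510). Atf3 stood at 2.15 (adjusted p = 0.117) and Jun at 1.73 (adjusted p = 0.0664). Maff stood at -1.18, with lower signals on every P2 array than on any P0 array (adjusted p = 0.0719). Id1 and Id3, direct targets of BMP signalling that inhibit basic helix-loop-helix factors, also rose, by 4.63-fold and 4.37-fold, in a list of 16 Id, Hes and Hey genes of which 2 rose and none fell.

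The promoters of Zfp36 and Egr2 are shown because these 2 members rose and were the only ones of the list to hold a CArG box, the binding motif of serum response factor, in the 250 bases before the start. Sequences and starts are those of RefSeq on GRCm38.p6, on the strand of the gene, 5′ to 3′, with the CArG box in capitals. The Zfp36 window lies on chromosome 7 at 28379229 to 28379478 (minus strand) and its box begins 58 bases before the start. The Egr2 window lies on chromosome 10 at 67537316 to 67537565 (plus strand), belongs to 1 of 5 starts listed for the gene, and its box begins 72 bases before the start.
Zfp36 promoter: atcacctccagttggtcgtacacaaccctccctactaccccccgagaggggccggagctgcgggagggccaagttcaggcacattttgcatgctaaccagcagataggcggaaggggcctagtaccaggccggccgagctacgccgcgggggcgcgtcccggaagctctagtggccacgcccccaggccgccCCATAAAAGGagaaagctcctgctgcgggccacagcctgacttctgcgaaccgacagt
Egr2 promoter: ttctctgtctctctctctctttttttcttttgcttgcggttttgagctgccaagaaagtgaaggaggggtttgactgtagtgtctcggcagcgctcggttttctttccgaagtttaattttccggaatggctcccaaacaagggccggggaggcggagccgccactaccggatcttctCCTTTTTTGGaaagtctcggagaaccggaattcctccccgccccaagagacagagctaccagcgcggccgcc
A promoter was listed for 21 of the 25 members. On either strand the CArG box (CC, then 6 bases each A or T, then GG) was found in 2 of the 21 (9.52%), against 1.62% of all 27025 genes with a promoter. The core of the cyclic AMP response element, TGACG, was found in 14 of the 21 (66.7%), against 19.8% of all genes. The AP-1 site TGACTCA was found in none of the 21, against 5.16% of all genes. These counts describe letters in a window, not binding.

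**Figure D2:**
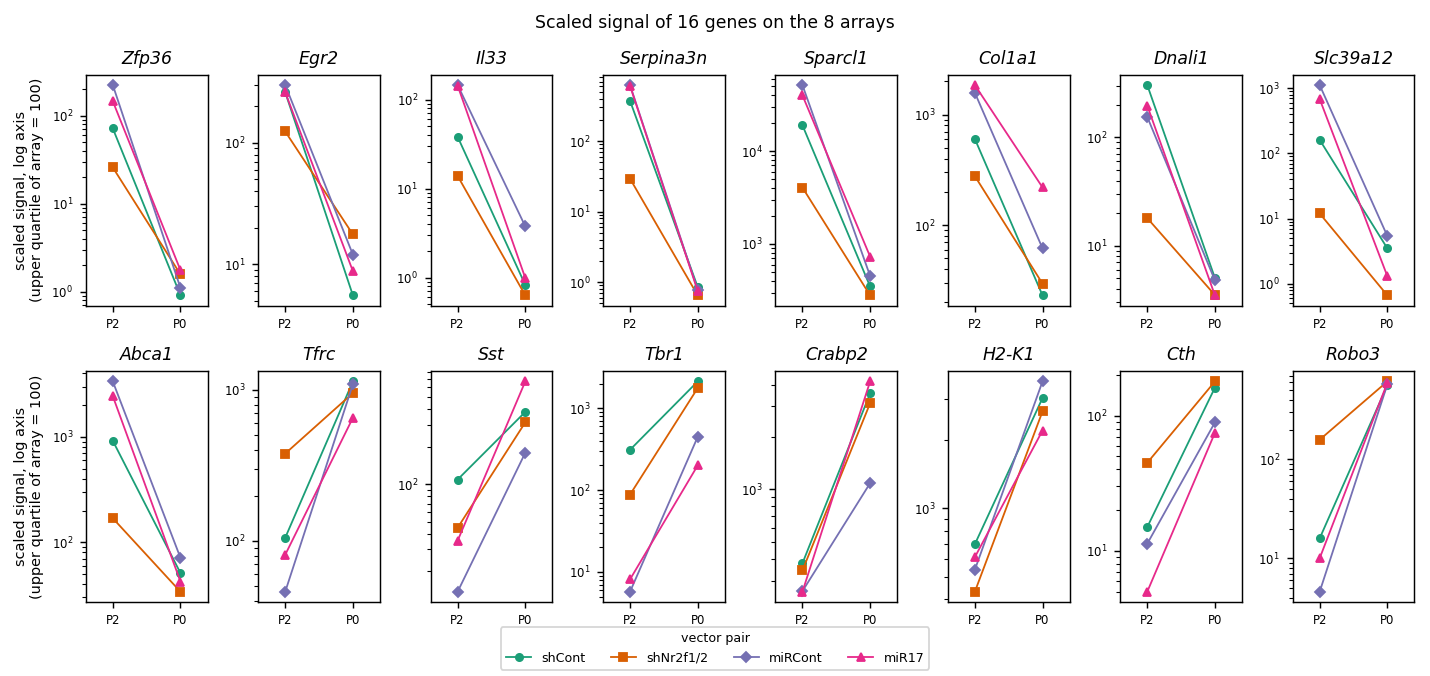
Scaled signal on a log axis (75th percentile of each array = 100) for 16 genes; in each panel the P2 array stands left and the P0 array of the same vector right, joined by a line. The first 9 genes are higher on every P2 array than on any P0 array and the last 7 lower, except that the P2 signal of Tbr1 with shCont (310.1) exceeds its P0 signal with miR17 (200.1).

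Genes of the extracellular matrix, the meshwork of collagens, glycoproteins and proteoglycans around cells, stood higher in P2 in each matrix list measured. Of 38 collagen chains, 6 rose and 1 fell, and the list's median stood at 1.06, or 0.59 after normexp. Col1a1, a chain of fibrillar collagen (chromosome 11, 94813115 to 94813174, mm9), had signals of 603, 278, 1577 and 1851 on the P2 arrays, against 23.2, 29.6, 61.8 and 219.7 on the P0 arrays. The lowest P2 signal was above the highest P0 signal, and the gene rose 15.1-fold (log2 3.92, SE 0.38, adjusted p = 0.0307). Col16a1 rose 14.8-fold, Col14a1 at least 10.3-fold and Col9a1 7.89-fold, with Col1a2 and Col8a2 the other chains that rose. Col25a1, a transmembrane collagen of neurons, fell 6.05-fold.

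The next list joined matricellular genes, whose products bind matrix without building its frame, with genes of elastic fibres. Of 33 members 8 rose and 2 fell, with a median at 1.23. The median was 0.62, with 4 risen, where only probes above background on all 8 arrays were used. Sparcl1, a secreted antiadhesive glycoprotein (chromosome 5, 104508149 to 104508208, mm9), had signals of 18958, 4052, 51287 and 39762 in P2, against 349, 280.1, 453 and 732 in P0, and rose 46.9-fold (log2 5.55, SE 0.50, adjusted p = 0.0305). The 4 P2 values span a wider range than the P0 values but stay above them. Postn, which encodes periostin, rose 12.8-fold, Fbln5, which encodes an elastic fibre protein, at least 49.5-fold, and Thbs2 at least 13.4-fold, while Thbs1 fell 2.78-fold and Mfap4 2.96-fold. Of 18 basement membrane genes only Nid1, which links laminin to collagen IV, rose (12.6-fold). Of 18 genes of the neural matrix 3 rose: Tnc, the tenascin of neural stem cell niches, by at least 14-fold, and the chondroitin sulfate proteoglycans Cspg5 and Cspg4 by 7.51-fold and 4.31-fold.

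All 10 small leucine-rich proteoglycans tested had a positive difference, and Kera alone passed the test. Among 37 matrix proteases and their inhibitors Timp4, an inhibitor of metalloproteinases, rose 13.4-fold and Adamts2, which trims procollagen, 4.30-fold, while Adamts3 fell at least 9.26-fold. Mgp, which encodes matrix Gla protein, an inhibitor of calcification, rose at least 21.4-fold. Of 22 integrins Itga2 and Itgb3 rose and Itga4, the fibronectin and VCAM1 receptor chain, fell 6.79-fold.

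Markers of fibroblasts and mesenchyme are in part matrix genes. Col1a1, Col1a2, Col3a1, Dcn and Lum encode collagens or leucine-rich proteoglycans, so they are not separate from the matrix result. Of 8 such markers 3 rose (Col1a1, Col1a2 and Pdgfra) and none fell, and 4 had P2 signals wholly above the P0 signals. Their summed signal was 3634 to 7756 on the P2 arrays, against 704 to 3664 on the P0 arrays, and none was at background. Dcn had 1370.0, 969, 582 and 648 in P2, against 77.1, 65.9, 363 and 284 in P0, and Lum overlapped, with 345, 177, 238 and 213 in P2, against 34.5, 48.6, 251 and 220.1 in P0. Pdgfra also counts among the oligodendrocyte lineage markers. Pdgfrb overlapped, with 155, 104, 102 and 118 in P2, against 34.8, 32.3, 49.1 and 113 in P0. Twist1 overlapped as well, with 62.5, 56.1, 51.0 and 50.8 in P2, against 37.8, 32.4, 65.0 and 91.8 in P0. The part of fibroblasts and mesenchymal cells in the matrix result was not tested.

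S100 proteins, small calcium-binding proteins of glia and many other cells, rose in 6 of 14 cases and fell in none, with a median at 2.57. Besides S100b, a glial marker, S100a4, a regulator of cell motility (chromosome 3, 90409734 to 90409793, mm9), had signals of 115, 66.9, 310.4 and 386 in P2, against 10.6, 12.2, 20.3 and 29.7 in P0, and rose 10.5-fold (log2 3.39, SE 0.30, adjusted p = 0.0305). S100a10, the annexin A2 partner, rose 12.5-fold and S100a1 18.9-fold, with S100a6 and S100a11 the others that rose. All 4 P2 signals lay above the P0 signals for 6 members, and none lay wholly below. Astrocyte markers, which include S100b and so are not separate from this list, also stood higher. Their summed signal was 1289 to 26381 in P2, against 323 to 646 in P0. That of 6 oligodendrocyte lineage markers was 979.7 to 29461 in P2, against 622 to 822 in P0. In the knockdown pair the astrocyte sum was 1289 in P2, against 465 in P0. The oligodendrocyte sum there was 979.7, against 822. The part of these cells in the S100, cholesterol export, transporter and potassium channel results was not tested.

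Serpins, a family made mostly of protease inhibitors, gave no common direction: 8 of 36 rose and 2 fell, and the median stood at 0.66, 0.69 and 0.72 in 3 pairs but at -0.04 in the knockdown pair. Serpina3n, an acute-phase inhibitor of granzyme B and elastase (chromosome 12, 105651918 to 105651977, mm9), had 373, 29.3, 624 and 607 in P2, against 0.852, 0.649, 0.778 and 0.749 in P0. It was above background on no P0 array and rose at least 177-fold (adjusted p = 0.0306). Serpinb1a, a neutrophil elastase inhibitor, rose 31.6-fold. Serpinb1c, Serpinb1b, Serpinb9 and members of the Serpinb6 group rose as well, and Serpinb9f fell at least 6.60-fold. Serpinb1a, Serpinb1b and Serpinb1c are close paralogues, as are members within the Serpinb6 and Serpinb9 groups, so which copy a probe reads is uncertain. Serping1, the C1 inhibitor of complement, fell 3.17-fold.

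Chemokines, cytokines and their receptors gave 9 higher and 3 lower calls among 101 genes. Il33, an alarmin of the interleukin 1 family (chromosome 19, 30035101 to 30035160, mm9), had 38.3, 13.9, 146 and 144 in P2, against 0.828, 0.633, 3.77 and 0.992 in P0. It was above background on no P0 array and rose at least 30.6-fold (adjusted p = 0.0305). The neutrophil chemokine Cxcl1 rose at least 26.3-fold, the monocyte chemokine Ccl7 at least 9.82-fold, and Osmr, the receptor chain for oncostatin M, at least 13.4-fold. Il11, Tnfrsf22 and Tnfrsf19 fell between 2.15-fold and 2.40-fold. The list's median stood at 0.13, with 17 genes wholly above and 17 wholly below. Ifi27, an interferon-inducible gene, rose 56.8-fold and Ifitm6 at least 17.2-fold. The leukocyte marker Ptprc had 1.65 to 2.66 in P2, against 2.39 to 5.77 in P0. The summed signal of the microglial markers tested, Itgam left out, was 80.7 to 99.5 in P2, against 119 to 188 in P0. Most of this sum was Csf1r, and the markers did not all move the same way. P2ry12 had 0.657, 1.40, 5.92 and 5.80 in P2, against 1.47, 0.751, 1.23 and 0.859 in P0. It was above background on 2 P2 arrays and no P0 array, and C1qa on 1 P2 array and no P0 array. Aif1 overlapped and was highest on the shCont P2 array (11.2). The part of microglia in the cytokine results was not tested.

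Motile cilia are the beating appendages of ependymal cells, which line the ventricles, and their genes stood higher in P2. Of 37 members 7 rose and none fell, and 16 had P2 signals wholly above those of P0. The median stood at 1.68, with 3.62, 0.68, 2.11 and 1.81 by pair, the shCont pair being the highest. It stood at 1.23 after normexp, and at 2.22 without the CA-repeat probes described below. Foxj1, the transcription factor that drives motile ciliogenesis, had 894, 145, 592 and 587 in P2, against 81.1, 49.3, 92.7 and 114 in P0, and rose 5.72-fold (log2 2.52, SE 0.34, adjusted p = 0.0370). Dnali1, an axonemal dynein light chain (chromosome 4, 124732591 to 124732650, mm9), had 305, 18, 155 and 197 in P2, against 5.03, 3.50, 4.79 and 3.48 in P0, and rose at least 27.5-fold. Cfap52 rose at least 24.2-fold, Cfap126 10.4-fold and Cfap44 at least 10.6-fold. Of 28 genes of primary cilium transport, which serve the single sensory cilium of most cells, 1 rose (Bbs9, 2.54-fold) and the median stood at 0.61.

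The 4 ependymal markers are themselves genes of motile cilia, so they are not separate from this list. Of these markers Foxj1 alone passed the test and 3 had P2 signals wholly above the P0 signals. Their summed signal was 213 to 1276 on the P2 arrays, against 91.3 to 152 on the P0 arrays. Rsph1 had 275, 40.8, 280.2 and 397 in P2, against 24.3, 23.9, 21.4 and 19.7 in P0, while Dnah5 had 6.11 to 18.7 in P2, against 2.40 to 7.30 in P0, and overlapped. The knockdown pair had the smallest difference for Dnali1, Cfap52 and Cfap126. The part of ependymal cells in the cilia result was not tested.

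**Figure D3:**
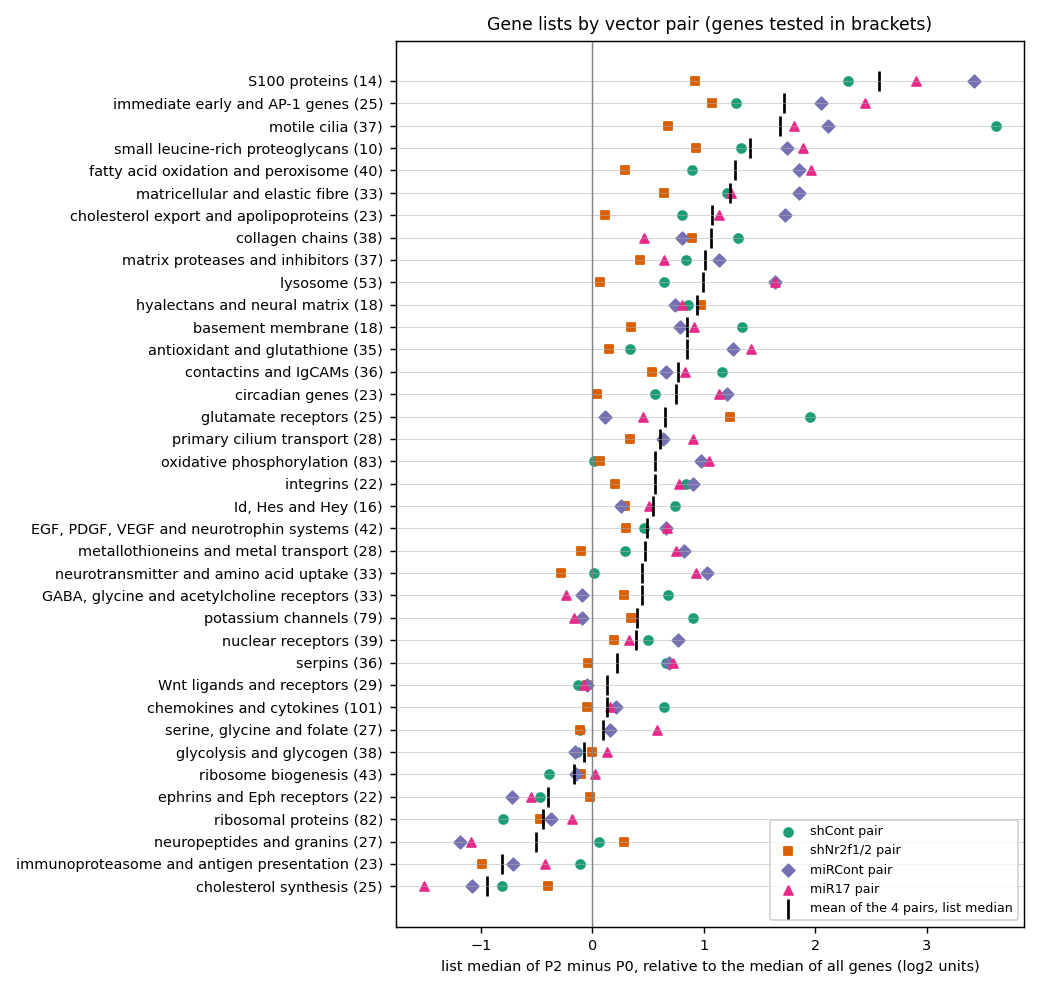
Median P2 minus P0 difference of 37 gene lists relative to the median of all genes (x axis, log2 units), sorted by the black bar, which is the list median of the 4-pair mean; each symbol is the list median in 1 vector pair and the number of genes tested stands in brackets. S100, immediate early and motile cilia genes lie furthest to the right and cholesterol synthesis furthest to the left, and the squares of the knockdown pair lie close to 0 in many lists.

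Genes of cholesterol synthesis stood lower in P2 and genes of fatty acid oxidation higher. Cholesterol is made in the endoplasmic reticulum through mevalonate, and its genes are switched on together by SREBP2 when sterol runs low. Of 25 genes in this list 1 fell and none rose, but 18 had P2 signals wholly below those of P0 (15.2% of all genes did). The median stood at -0.95 and by pair at -0.81, -0.40, -1.08 and -1.51. Msmo1, the sterol C4 demethylase (chromosome 8, 67196982 to 67197041, mm9), had 2088, 2908, 3319 and 2247 in P2, against 6985, 5481, 6962 and 6243 in P0, and fell 2.46-fold (log2 -1.30, SE 0.22, adjusted p = 0.0448). In a separate list of 27 fatty acid synthesis genes Acly, which makes acetyl-CoA, fell 2.00-fold and the desaturase family gene Fads3 rose 4.86-fold.

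The promoter of Msmo1 is shown because CCAAT, the motif bound by NF-Y, a known partner of SREBP2, recurs in it. The window holds the 250 bases before the RefSeq start on GRCm38.p6, chromosome 8 at 64733579 to 64733828 (minus strand), 5′ to 3′, with the 3 CCAAT motifs in capitals.
Msmo1 promoter: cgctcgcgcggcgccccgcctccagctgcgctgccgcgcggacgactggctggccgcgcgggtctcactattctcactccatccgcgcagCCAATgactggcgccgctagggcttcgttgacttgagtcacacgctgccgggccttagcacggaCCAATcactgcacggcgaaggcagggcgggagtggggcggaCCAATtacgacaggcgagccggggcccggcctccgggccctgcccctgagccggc
On either strand CCAAT was found in 16 of the 17 list members with a promoter (94.1%), against 37.5% of all 27025 genes with one.

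Genes of cholesterol export stood higher, with a median at 1.07 over 23 genes. Abca1, the transporter that loads cholesterol onto apolipoproteins (chromosome 4, 53043944 to 53044003, mm9), had 918, 169, 3359.9 and 2435 in P2, against 51.0, 33.9, 71.1 and 42.3 in P0, and rose 22.2-fold (log2 4.47, SE 0.63, adjusted p = 0.0375). Lcat, which esterifies cholesterol, rose at least 10.2-fold, and Vldlr, a lipoprotein and reelin receptor, fell 2.76-fold, so that 2 members rose and 1 fell. Apoe, named after its values were seen, was not called (log2 3.77, SE 1.10, adjusted p = 0.0785): it had 19213, 59564 and 48339 on 3 P2 arrays but 1792 with the knockdown, against 705 to 1968 in P0. Of 40 genes of fatty acid oxidation and peroxisomes 36 had a positive difference, 13 lay wholly above and the median stood at 1.28. Of these 2 rose and none fell, among them Acox2, a peroxisomal oxidase (at least 5.12-fold).

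**Figure D4:**
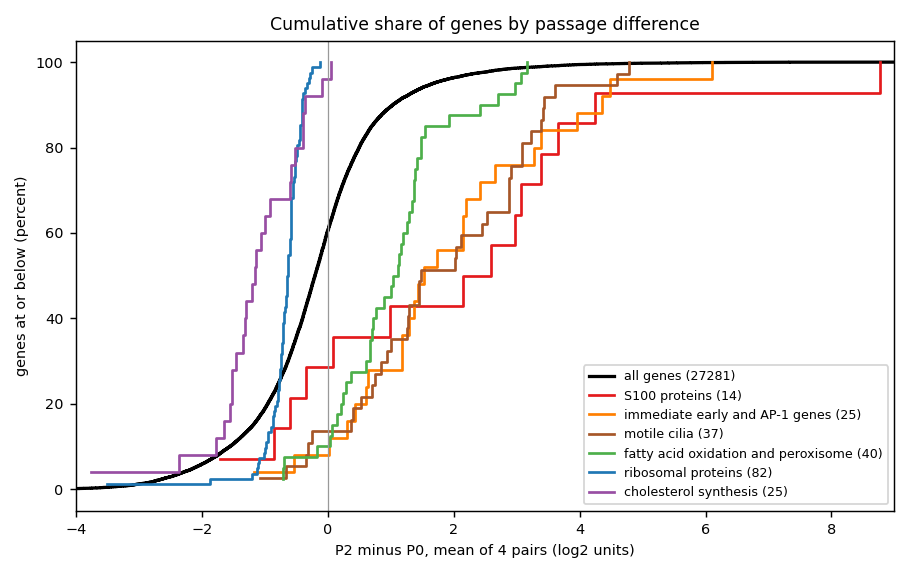
Share of genes (y axis, percent) whose P2 minus P0 difference, averaged over the 4 pairs, is at or below the value on the x axis (log2 units), for all 27281 genes in black and 6 lists in colour. The ribosomal protein curve is steep and lies left of 0, the cholesterol synthesis curve lies further left, and the fatty acid, motile cilia, immediate early and S100 curves lie right of the curve of all genes over most of their range.

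Oxidative phosphorylation and lysosomal genes stood higher mainly in the miRNA pairs. For 83 respiratory chain genes the median stood at 0.01, 0.07, 0.97 and 1.05 by pair, none was called, and 3 lay wholly above and 2 wholly below. For 53 lysosomal genes it stood at 0.64, 0.07, 1.64 and 1.64, with Ctsk, a cathepsin, risen and Lamp5 fallen. Of 35 antioxidant genes Nqo1, a quinone reductase, rose at least 7.10-fold and Gsr, glutathione reductase, 2.56-fold. The difference between the vector systems was not tested.

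Glycolysis and glycogen genes as a list stood at the level of all genes (median -0.08), while single members moved. Aldoc, the brain aldolase and a glial gene, rose 10.4-fold, and Pygb, the brain glycogen phosphorylase, had 822, 181, 1055 and 1429 in P2, against 98.5, 75.8, 128 and 96.8 in P0, and rose 7.02-fold. In amino acid and one-carbon metabolism Cbs, which condenses homocysteine with serine, rose 5.24-fold. Cth, the next enzyme of that pathway, went the other way, with 15, 44.8, 11.3 and 4.99 in P2, against 161, 179, 89.1 and 74.7 in P0, and fell 8.43-fold (log2 -3.08, SE 0.35, adjusted p = 0.0336). Mthfd2, a mitochondrial folate enzyme, fell 3.65-fold and Pycr1, of proline synthesis, 4.73-fold. Tdh, threonine dehydrogenase, an enzyme of mouse embryonic stem cells (chromosome 14, 64111327 to 64111386, mm9), fell 9.98-fold and is taken up again with the pluripotency genes.

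Iron and metal transport changed in both directions. Tfrc, the transferrin receptor (chromosome 16, 32632255 to 32632314, mm9), had 105, 379, 46.1 and 81.0 in P2, against 1139, 954, 1092 and 654 in P0, and fell 8.51-fold (log2 -3.09, SE 0.54, adjusted p = 0.0467). Trf, which encodes transferrin, rose 6.23-fold, and Steap1, of a family of metalloreductases, fell 3.49-fold. The zinc importer Slc39a12 had 162, 12, 1123 and 686 in P2, against 3.50, 0.664, 5.41 and 1.31 in P0, and rose at least 77.8-fold. The manganese exporter Slc30a10 rose at least 31.9-fold and the vesicular zinc transporter Slc30a3 fell 7.39-fold or more. Mt1, a metallothionein named after its values were seen, was not called: it had 15516, 41392 and 32072 on 3 P2 arrays and 1353 with the knockdown, against 907 to 1855 in P0 (log2 3.29, SE 0.88, adjusted p = 0.0697).

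Genes for the uptake and breakdown of transmitters changed in both directions. Among those that rose, Slc6a11, the GABA transporter GAT3, had 415, 121, 407 and 208 in P2, against 26.1, 17.4, 45.6 and 20.7 in P0, and rose 9.99-fold (log2 3.32, SE 0.25, adjusted p = 0.0305). Abat, which breaks down GABA, rose 4.52-fold, the glutamate transporter Slc1a1 9.56-fold, and Glul, Slc1a3 and Slc38a3 rose as well. Among those that fell were vesicular glutamate transporters, Slc17a6 by 4.62-fold and Slc17a7 by at least 3.61-fold, together with Slc17a8 and the acetylcholine transporter Slc18a3. The amino acid transporters Slc1a5, Slc38a5 and Slc7a1, which feed growing cells, fell 4.46-fold, at least 7.94-fold and 2.80-fold. Of the 33 genes in the list 6 rose and 7 fell.

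Of 79 potassium channel genes 7 rose (8.86%, against 2.55% of all genes) and none fell. The list had no common direction, with its median at 0.90, 0.35, -0.09 and -0.17 by pair. A positive difference was seen in 43 members, and 10 lay wholly above and 6 wholly below. Kcnj16, an inward rectifier of glia and kidney (chromosome 11, 110889223 to 110889282, mm9), had 260.4, 14.7, 454 and 206 in P2, against 0.845, 0.664, 0.833 and 1.15 in P0, and rose at least 95.9-fold (adjusted p = 0.0327). Kcnj3 rose 6.20-fold or more and the A-type channel Kcnd2 5.75-fold. Glutamate receptors stood higher, with 4 of 25 risen and none fallen and a median at 1.95, 1.23, 0.11 and 0.45 by pair. Grm3, a metabotropic receptor of astrocytes and neurons, had 84.6, 41.4, 32.8 and 23.6 in P2, against 4.93, 2.59, 5.82 and 1.76 in P0, and rose at least 11.6-fold. Grin3a, Grik4 and Gria1 rose between 3.01-fold and 6.07-fold. Among receptors for GABA, glycine and acetylcholine Gabrg1 rose 19-fold and Gabra5 at least 11.2-fold, and the nicotinic subunits Chrna4 and Chrnb4 fell 3.95-fold and 2.29-fold.

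Adhesion molecules of the immunoglobulin and contactin families rose in 6 of 36 cases and fell in none. They include Opcml (5.29-fold), a GPI-anchored protein of neural membranes, Cntnap4 (at least 4-fold), Ncam2 (3.99-fold) and Lrrtm2 (3.45-fold). The 22 Eph receptors and ephrins stood lower, with Epha2, Epha10 and Epha7 fallen and Ephb1 risen 2.19-fold. Their median stood at -0.40 and by pair at -0.47, -0.02, -0.72 and -0.55, so the knockdown pair was nearly level. With the mean of probes 1 member was called higher and 1 lower. The claudin Cldn1 and the connexin Gjb6 rose, while Cldn6, a claudin of embryonic epithelia, fell at least 4.39-fold.

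Growth factor systems also changed. Egfr, the receptor for EGF, had 553, 99.5, 1034 and 582 in P2, against 30.5, 22.1, 34.5 and 49.4 in P0, and rose 13.0-fold (log2 3.70, SE 0.47, adjusted p = 0.0360). Pdgfra rose 4.93-fold and its ligand Pdgfa 4.05-fold. Wnt ligands and receptors fell in 3 of 29 cases, Fzd2 by 4.83-fold, Wnt8b, of the cortical hem, by 6.45-fold, and Wnt10b at least 4.33-fold. As a list they had no common direction, and 12 of the 29 had a positive difference. The median stood at 0.13, with -0.13, -0.05, -0.05 and -0.08 by pair. Rspo2, which enhances Wnt signalling, fell 22.9-fold. Of 20 genes of the retinoic acid pathway 2 fell and none rose, although the list's median stood at 0.68. Crabp2, a retinoic acid carrier, had 377, 343, 261 and 259 in P2, against 3558, 3123, 1087 and 4166 in P0, and fell 8.70-fold (log2 -3.12, SE 0.35, adjusted p = 0.0336). Stra6, the retinol importer, fell at least 4.06-fold. Of 39 nuclear receptors 3 rose and 3 fell. Besides Nr4a1, those that rose were the glucocorticoid receptor Nr3c1 (risen 4.90-fold) and the thyroid hormone receptor Thrb (risen at least 7.03-fold). Nr2e1, the neural stem cell receptor Tlx, fell 2.05-fold, with Esrrb and Nr0b1 the others that fell.

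Neuropeptide genes had no common direction over the 4 pairs. Of 27 members 4 fell and none rose, and the median stood at 0.06, 0.28, -1.19 and -1.09 by pair. Sst, which encodes the interneuron peptide somatostatin, had 109, 44.7, 13.7 and 35.2 in P2, against 381, 314, 179 and 669 in P0, and fell 8.84-fold (log2 -3.14, SE 0.44, adjusted p = 0.0370). Cartpt fell 27.7-fold, Nts, neurotensin, 5.70-fold, and Adcyap1, the peptide PACAP, at least 6.61-fold. Robo3, the axon guidance receptor that lets commissural axons cross the midline (chromosome 9, 37224357 to 37224416, mm9), had 15.9, 158, 4.59 and 10 in P2, against 561, 614, 572 and 595 in P0. Its P0 signals were nearly equal and its knockdown array kept the highest P2 signal, and the gene fell 31.7-fold (log2 -4.99, SE 0.83, adjusted p = 0.0442).

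Tbr1 and Eomes, T-box factors of cortical glutamatergic neurons and their intermediate progenitors, fell 22.6-fold and 10.4-fold. Tbr1 (chromosome 2, 61652093 to 61652152, mm9) had 310.1, 88.0, 5.74 and 8.13 in P2, against 2119.5, 1759, 446 and 200.1 in P0, so the miRNA arrays were below the shRNA arrays at both passages. Sp8, a zinc finger factor of the forebrain, fell 5.51-fold, with 357 on the knockdown P2 array, against 62.7 to 71.5 on the other P2 arrays and 442 to 674 in P0. The summed signal of 6 neuronal markers was 2198 to 5471 in P2, against 5828 to 7946 in P0, and its part in these results was not tested. Mest, an imprinted gene, fell 5.21-fold and Igf2bp2, an RNA-binding protein of fetal tissue, 3.39-fold.

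Of 6 pluripotency markers 2 fell (Zfp42 and Esrrb) and 1 rose (Klf4, 2.42-fold), and their summed signals overlapped, at 417 to 619 in P2, against 445 to 2499 in P0. Other genes known from pluripotent cells fell as well. Zfp42 (Rex1), a marker of naive embryonic stem cells, had 5.80, 1.63, 1.42 and 1.10 in P2, against 60.0, 70.5, 8.33 and 9.58 in P0. It was above background on 1 P2 array and fell at least 12-fold (log2 -3.62, SE 0.50, adjusted p = 0.0370). Esrrb fell 5.68-fold, Nr0b1 at least 14.1-fold and Fgf4 at least 6.37-fold, the last with 1 P0 array dim as well. Tdh had 30.8, 12.7, 11.4 and 8.83 in P2, against 209.7, 247, 76.4 and 98.8 in P0. The P0 signals of Zfp42, Tdh and Esrrb were higher on the shRNA arrays than on the miRNA arrays. Pou5f1 was low throughout, with 2.51 to 4.68 in P2, against 4.56 to 11 in P0, and Nanog was not called (100.3 to 116 in P2, against 90.5 to 122 in P0).

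Ribosomal protein genes stood lower in P2 by a small and even amount. All 82 members tested had a negative difference and 69 of them lay wholly below their P0 signals, where 15.2% of all genes did, but 3 were called. The median stood at -0.44, with -0.80, -0.47, -0.37 and -0.18 by pair, and at -0.16 after quantile normalization. Rpl18 (chromosome 7, 52975771 to 52975829, mm9) had 8724, 11464, 8414 and 7381 in P2, against 21572, 22250.4, 18239 and 16098 in P0, and fell 2.18-fold (log2 -1.13, SE 0.18, adjusted p = 0.0426). Rpl5 fell 2.32-fold and Rps19 2.13-fold. Probes for ribosomal protein genes can also read processed pseudogenes. Of 43 ribosome biogenesis genes Gnl3, nucleostemin, fell 2.38-fold and the median stood at -0.17.

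Antigen presentation genes stood lower, with 2 of 23 fallen, none risen and a median at -0.81, although 10 of the 23 had a positive difference. Without the shNr2f1/2 pair the median stood at -0.42, with 6 members higher and 5 lower. H2-K1, a class I heavy chain (chromosome 17, 34133055 to 34133114, mm9), had 697, 432, 539 and 612 in P2, against 3038, 2655, 3591 and 2190.1 in P0, and fell 5.03-fold (log2 -2.33, SE 0.23, adjusted p = 0.0307). Its probe can read other class I genes of the same haplotype. B2m, the light chain partner, named after its values were seen, had 914, 487, 2385 and 2275 in P2, against 755, 679, 537 and 470.2 in P0, and was not called (adjusted p = 0.204).

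No gene passed a test of whether the passage difference with the Nr2f1/2 shRNA differed from that of the other 3 vectors: 0 of 27281 were called (0%), the smallest adjusted p in limma was 0.541, and 2153 genes had an unadjusted p under 0.05. The 10 genes with the smallest p among those called for passage had been higher in P2, and in each the knockdown pair had the smallest difference. Plxnb3, a semaphorin receptor, had 495, 11, 1159 and 1455 in P2, against 1.09, 1.11, 2.76 and 4.36 in P0. Entpd2, an ectonucleotidase of neural progenitors, had 1718, 93.2, 1887 and 1587 in P2, against 10.8, 10.8, 7.66 and 9.42 in P0. Ramp1, the partner of the receptor for the peptide CGRP, had 321, 34.0, 655 and 538 in P2, against 1.58, 4.67, 4.13 and 2.17 in P0. In all 3 genes the knockdown P2 array lay between the P0 arrays and the other P2 arrays. Bbox1, Ifit3, Hr, Hdc and the glial genes Gpr17, Ntsr2 and S100b made up the rest.

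Probes that hold a simple repeat gave signals that differed between arrays with the length of the repeat, a pattern chosen for description after its values were seen. Of 55653 probes 244 (0.438%) held the dinucleotide CA repeated at least 4 times and 43 (0.0773%) at least 7 times. Windows of 30 bases from 3 such probes are shown because they read genes that serve as markers or list members. They are given 5′ to 3′ as printed on the array, with the repeat in capitals, and the probe positions are mm9: Itgam on chromosome 7 at 135261755 to 135261814 (plus strand), Snap25 on chromosome 2 at 136607709 to 136607768 (plus strand) and Cat on chromosome 2 at 103294487 to 103294546 (minus strand).
Itgam probe: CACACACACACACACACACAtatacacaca
Snap25 probe: CACACACACACACACACACAaagtggattt
Cat probe: acatacCACACACACACACACAtgcaatac
From 4 repeats on, the median signal was higher the longer the repeat on every array. For 7 repeats or more the median was 1174, 959.9, 2499.8 and 2211 on the P2 arrays, against 882, 1100.3, 5569 and 8319.7 on the P0 arrays. The median of the differences of single probes was 0.21 and -0.25 log2 units in the shRNA pairs and -1.35 and -1.97 in the miRNA pairs.

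Of 15 genes or loci with a probe of 7 repeats or more and another probe of fewer than 4, the mean differences had opposite signs in 6 and the same sign in 9. Rad18 stood at -1.06 on its repeat probe and at -0.95 on the other. Cat, catalase, stood at 0.64, -0.27, -1.16 and -2.06 by pair on the repeat probe but at 1.20, 0.33, 2.21 and 2.05 on its other probe. Fmn2 stood at -0.79 on average on its repeat probe and at 1.87 on the other, and Slc17a5 at -0.76 and 1.22. The signal of Itgam, a microglial marker, was 2689 to 5583 in P2, against 2776 to 17092 in P0, while Csf1r had 67.2 to 91.2 in P2, against 109 to 177 in P0, and Cx3cr1 and Tyrobp were not above background. Snap25, a neuronal marker, had 2125 to 4478 in P2, against 2121 to 16732 in P0. Both are read by repeat probes and were left out of the sums of markers. A repeat probe was read for 172 genes, of which 1 was called higher and 3 lower. Without these probes 1373 genes were called, among them 1309 of the 1313.

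**Figure D5:**
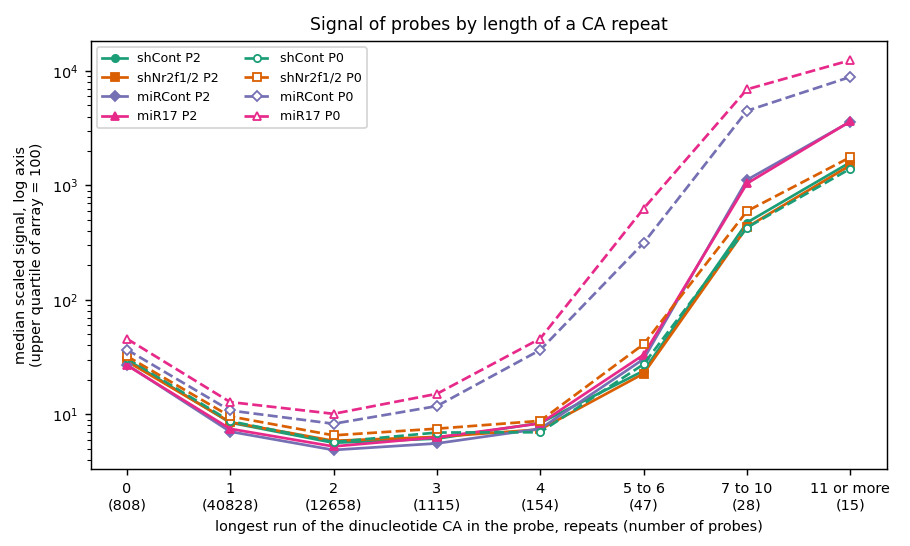
Median scaled signal on a log axis (75th percentile of each array = 100) of probes grouped by their longest run of the dinucleotide CA (x axis, number of probes in brackets); solid lines are P2 arrays and dashed lines P0 arrays. Above 4 repeats the signal climbs on all 8 arrays, and the P0 arrays of the miRNA vectors lie above the rest at every length, by most from 4 repeats on.

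The same miRNA P0 arrays were high on another group of probes. Of 101 genes placed on the unordered part of the Y chromosome in mm9, which holds multicopy gene families of the long arm, 27 fell and none rose, with a median at -2.61 and at -0.74, -1.63, -3.73 and -4.23 by pair. Orly had 1.4, 1.84, 28.9 and 42.3 in P2, against 17.6, 30.5, 559 and 975 in P0, and fell 17.4-fold, and Sly fell 11.4-fold. The Orly signals of 1.4 and 1.84 are dim, and its background count can come from another probe, so its fold is uncertain. Probes for these copies share sequence, so they are not separate measurements. Single-copy genes of the short arm were not called, but they did not all stay level. Eif2s3y stood at -0.24, Ddx3y at 0.46 and Uty at 0.61. Ube1y1 stood at -0.74 (by pair -0.50, -0.32, -1.07 and -1.09), with all P2 signals below all P0 signals. Sry, a dim gene, stood at -1.19 (by pair -0.05, -1.19, -1.29 and -2.24). Of 129 probes for the unordered part 94.6% and 96.1% were above background on the miRNA P0 arrays, against 35.7% and 50.4% on the shRNA P0 arrays and 22.5% to 48.8% on the P2 arrays.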

How the data were processed

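RNA of 8 neurosphere cultures was labelled with Cy3 and hybridised to 1-colour Agilent arrays. The processed intensity of each spot (per the file headers, background-subtracted with version 10.7.3.1 of Agilent Feature Extraction) was the starting point, and probe positions are mm9, per the file headers. The authors deposited a second table of signal values, which equal the processed intensity divided by a constant for each array. It was used as an alternative only, and its log2 values were taken here from the linear signal the authors deposited.

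Control spots and 1104 outlier spots were left out and spots of a probe averaged. The log2 intensity minus the 75th percentile of each array was used. Probes were kept where 2 or more of the 8 arrays were well above background (39669 of 55653), and the brightest probe stood for each of 7870 genes with several. Names came from RefSeq by accession for 26413 probes and from the files for 29240. The model had the vector as a block (R 4.3.3, limma 3.58.1), and p-values were two-sided with Benjamini-Hochberg adjustment over 27281 genes. The fits were tested on simulated data. The vector named in the labels gives the pairing: deviations of arrays of the same vector correlated at 0.13, 0.16, 0.14 and 0.15, although shCont P2 correlated at 0.14 with shNr2f1/2 P0 and miR17 P2 at 0.22 with miRCont P0.

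The 83 gene lists and all comparisons were chosen with earlier results of these data known. Named genes were the 20 higher and 20 lower called genes with the largest smallest-of-4 pair difference, outside the glial, proneural and cell cycle lists and above background where higher. To these came up to 4 called members of each list in each direction and the 10 genes with the smallest p for the knockdown comparison. Other genes were chosen after their values were seen. Alternatives covered background correction, normalization, filters, probes per gene, the block, the prior and the arrays used. The results of a few genes are not reported here.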

Additional observations from a re-analysis of the deposited data

Results flagged for a closer look

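For each of 226 named genes and 37 lists the 4 pair differences (log2, P2 minus P0) were searched for a pair far from the others. Chance gives about 1 in 20. However, 10 of the genes were named for a small p in the knockdown comparison, so for them this rate does not apply. A pair was flagged for 19 of the 226 genes, 9 of them among those 10, and for 1 list. The remaining genes and the list are no more than about what a rate of 1 in 20 gives. In the Nr2f1/2 shRNA pair the difference was small beside the other 3 pairs for Gpr17 (3.70), Plxnb3 (3.31), Bbox1 (2.91), Ifit3 (2.14), Ramp1 (2.87), Entpd2 (3.11), Ntsr2 (3.45), Hr (1.30) and Hdc (2.26), which restates how these 9 were chosen, and part of their P0 signals were not above background. The same held there for Col16a1 (2.55), Gstm1 (1.01) and Serpinb9 (1.85). In that pair Fgf4 stood at -4.38, further from 0 than in the others (-2.30 to -1.91), and Pbx2 at -0.67, nearer to 0 (-1.69 to -1.61). In the miR17 pair Lhx4 stood at -6.80 (others -3.69 to -3.21) and Lamp5 at -4.02 (others -2.45 to -2.17). In the shCont pair Opcml stood at 3.68 (others 1.92 to 2.06) and Mkx at 3.85 (others 1.65 to 1.93). In the miRCont pair Cntnap4 stood at 1.19 (others 2.41 to 2.52). The serpin list stood at -0.04 in the Nr2f1/2 shRNA pair (others 0.66 to 0.72).

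List medians relative to all genes took opposite signs between vectors in 8 lists, and none of these differences was tested. The Nr2f1/2 shRNA pair differed from the mean of the other pairs by -0.73 for serpins, -0.38 for chemokines and cytokines, -0.93 for transmitter and amino acid uptake, and -0.73 for metallothioneins and metal transport. The shRNA pairs differed from the miRNA pairs by 0.76 for potassium channels, 0.65 for GABA, glycine and acetylcholine receptors, 1.31 for neuropeptides, and -0.48 for serine, glycine and folate genes.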

How the results depend on the processing

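Against 1313 genes called, there were 7071 after normexp, 3692 with probes above background on all 8 arrays, 4295 with a trended prior, and 3928 with no replicate block, and the cause was not tested. Leaving out 1 vector pair gave 0 to 4786 calls. The control vectors alone gave 0 (5772 genes at an unadjusted p under 0.05 in limma), the shRNA vectors alone 0 (5063) and the miRNA vectors alone 13722. For the knockdown comparison normexp called 1 gene, against 0. List medians that moved included collagens 0.59, neural matrix 0.83, small leucine-rich proteoglycans 0.54, matrix proteases 0.55 and EGF and PDGF systems 0.30 under normexp, neural matrix 1.09 with no filter, matricellular genes 0.62 with the filter on all 8 arrays, and ribosomal proteins -0.16 after quantile normalization. The Wnt list, with no common direction, stood at 0.13 and moved between -0.13 and 0.27 over the filters, and glycolysis stood at 0.07 with no filter. With 1 pair left out, Wnt ranged from -0.09 to 0.20, neural matrix ranged from 0.84 to 1.01 and antigen presentation from -0.93 to -0.42. Under normexp the genes at least 2-fold higher or lower in a pair came to 4315 (shCont), 1722 (shNr2f1/2) and 7151 (miRCont). Of 226 named genes, 215 kept their call under normexp, 205 under quantile normalization, 212 with the mean of probes, 204 with no replicate block and 223 without the shNr2f1/2 pair; none did without any other pair. No direction reversed. With the CA-repeat probes left out, a setting chosen after seeing the data, all 226 kept it. With 1 array per vector and passage, the number of arrays limits the precision, and dim probes have only bounds.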
